A study of Mus musculus with 28 samples.

Results

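This account concerns 12 of the 28 islet libraries of a study of the transcription factor Klf6 in mice, chosen by a measured value and not by a label. All 12 are labelled control, and they were divided by the difference between the log2 levels of the insulin genes Ins1 and Ins2 in the deposited table of log2 CPM (log2 of reads scaled to the size of the library). A library with a difference at or under -1.5 is called low-ratio here (n = 5) and any other high-ratio (n = 7). The low-ratio libraries are labelled control saline replicates 2, 3 and 5 and labelled control S961 replicates 5 and 7. The high-ratio libraries are labelled control saline replicates 1, 4 and 6 and labelled control S961 replicates 1, 2, 3 and 8. Labelled control S961 replicates 4 and 6 were left out by the same choice, and the other 16 libraries of the series, those 2 and the 14 labelled βKlf6KO, serve as a second set. Differences throughout are low-ratio minus high-ratio on the log2 CPM scale.

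Mice were males of 10 to 12 weeks on a background given as C57Bl6 and 129sv. Every mouse carried Klf6 alleles flanked by loxP sites. Mice labelled control had 2 unaltered Ins1 alleles, and those labelled βKlf6KO had Cre recombinase in 1 Ins1 allele, which restricts Cre to cells that use the Ins1 promoter. Treatment was saline or the insulin receptor antagonist S961. Islets were picked by hand and kept in culture overnight, and RNA came from 120 to 150 islets of each mouse, so each library is 1 mouse. The spread behind each p-value is that between libraries, in which differences between animals and in handling cannot be told apart.

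Mice have a pair of insulin genes. Ins2 has the ancestral structure shared with other mammals, and Ins1 is a copy made through an RNA intermediate that is used in β cells. Both are among the most abundant RNAs of the islet. Klf6 is a zinc-finger factor that binds CACCC and GC boxes and is induced by injury and stress in many tissues.

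The ratio itself is a description, because it chose the classes. It lay between -2.38 and -2.11 in the low-ratio libraries and between -1.43 and -0.26 in the high-ratio libraries. The member just inside the threshold was labelled control S961 replicate 7 at -2.11, and the one just outside was labelled control S961 replicate 8 at -1.43. Ins1 had a mean of 14.2 log2 CPM in the low-ratio class and 13.8 in the high-ratio class, and Ins2 had 16.4 and 14.7. The medians of Ins1 ran the other way, 14.07 against 14.56, and 3 high-ratio libraries lay far below the others. Without those 3, described next, the high-ratio means were 14.9 for Ins1 and 15.97 for Ins2, so that Ins1 was lower and Ins2 higher in the low-ratio class. Low-ratio libraries among the other 16 had an Ins1 mean of 13.7 against 14.8, with Ins2 at 15.7 against 16.0.

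Of the high-ratio libraries 3 stood apart from the rest. Labelled control saline replicate 4 and labelled control S961 replicates 2 and 8 had 1.47%, 0.785% and 1.59% of their CPM in the insulin genes, against 6.58% to 17.4% in the other 9 of the 12. The same 3 had the highest scores, 84.0, 121.8 and 64.8, on the first principal component of the 12 libraries, which held 79.5% of the variance. Across 13362 genes, which are not independent replicates, the loadings of that component ran with the GC content of the transcript (Spearman -0.867). The score averaged -39.2 ± 18.9 (SD, n = 5) in the low-ratio class and 27.97 ± 63.7 (n = 7) in the high-ratio class (exact two-sided permutation p = 0.0404 over 792 assignments, 0.202 adjusted over 5 measures). Results below are therefore given with and without these 3 libraries where they bear on them.

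**Figure D1:**
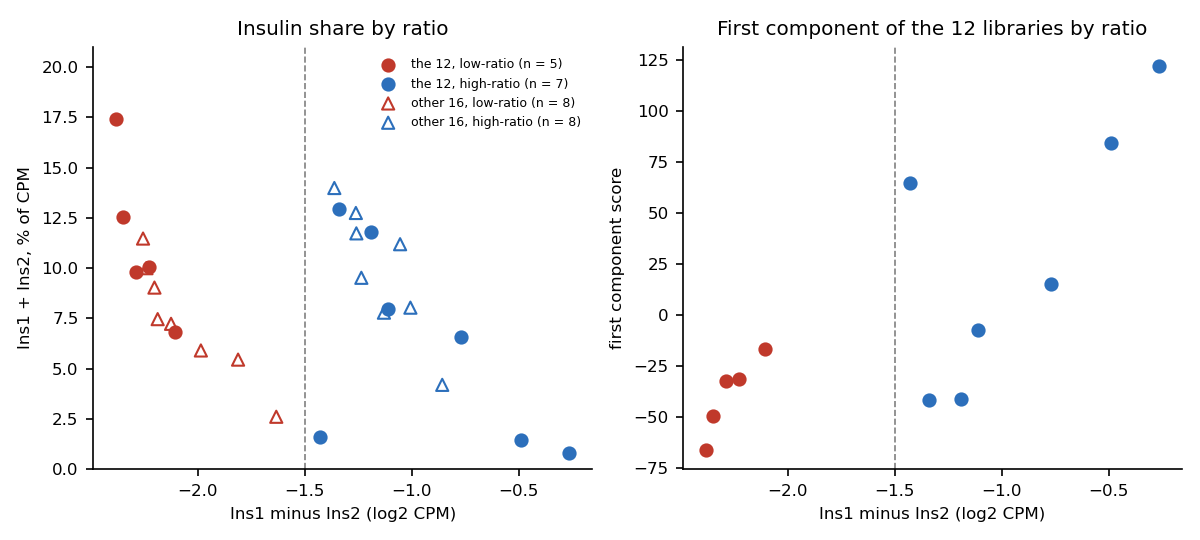
Left, share of CPM in Ins1 and Ins2 together (percent) against Ins1 minus Ins2 (log2 CPM) for the 12 libraries (filled circles) and the other 16 (open triangles), with the threshold of -1.5 as a dashed line. Right, first principal component score of the 12 libraries against the same difference; the 3 libraries with scores of 84.0, 121.8 and 64.8 all belong to the high-ratio class and have insulin shares of 0.785% to 1.59%.

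The 12 libraries were quieter for cell division than the others of the series, which was part of the reason for choosing them. Mki67, a marker of dividing cells, lay between -0.19 and 2.58 log2 CPM in the 12. It lay at 4.18 and 4.35 in the 2 control libraries left out and between 2.79 and 4.83 in the 14 labelled βKlf6KO. The 2.58 was that of labelled control saline replicate 5, a low-ratio library, whose mean over a list of proliferation genes was 1.34 log2 CPM. The highest such mean in the high-ratio class was 0.59, and the lowest in libraries labelled βKlf6KO was 1.73. Reads over the listed genes ran from 28868638 to 43001024 in the 12. At these depths a count of 0 allows at most 3 reads, a limit that covers counting error only. Each of the 4 sequencing lanes held both classes. Among the other 16, ratio class ran with treatment. There 7 of the 8 low-ratio libraries were labelled βKlf6KO S961 and 5 of the 8 high-ratio ones βKlf6KO saline. The remaining low-ratio library was labelled βKlf6KO saline. The remaining high-ratio ones were 2 labelled control S961 and 1 labelled βKlf6KO S961. A fit with treatment as a covariate takes treatment into account but not labelled genotype. All 8 low-ratio libraries were labelled βKlf6KO, so class also ran with labelled genotype, most of all among those labelled S961.

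No gene passed the test between low-ratio and high-ratio libraries. With limma, 0 of 13370 genes (0.0%) had a Benjamini-Hochberg adjusted p below 0.05, and the smallest adjusted p was 0.126. At an unadjusted p below 0.05 there were 5290 genes (39.6%), 2730 higher (20.4%) and 2560 lower (19.1%) in the low-ratio class. Without the 3 libraries that stood apart 0 genes were called and 733 of 13152 (5.57%) had an unadjusted p below 0.05. The count of 5290 also turned on single libraries, and was 2041, 2064, 1482, 2467 and 3019 without labelled control saline replicates 3 and 4 and labelled control S961 replicates 5, 8 and 2, 3369 and 3504 without labelled control saline replicates 2 and 5, and 7536 and 7577 without the first replicate of saline and of S961. Ranges of the classes did not overlap for 71 genes that were higher (0.531%) and 102 that were lower (0.763%) in the low-ratio class. The signed difference of a gene ran with its GC content (Spearman across genes 0.853 in the 12 libraries, 0.691 without the 3, and -0.109 in the other 16). In the 12, genes rich in GC thus tended to stand higher in the low-ratio class and genes poor in GC lower.

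Some other fits did make calls between the same classes. Library weights, which count a library less the more it scatters, gave 3296 called genes, the ratio taken as a number in place of classes gave 8763, and a fit of all 28 libraries with a shared spread gave 6040. In the library weights the 3 libraries that stood apart counted 0.200, 0.102 and 0.259, against up to 9.74 for labelled control saline replicate 6. Their part in those counts was not tested.

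Klf6, the gene targeted in the study, was not shown to differ between the classes, and its difference was smaller than the spread between libraries. Klf6 (ENSMUSG00000000078, GRCm38 chromosome 13, 5861482 to 5870394, plus strand) ran from 6.18 to 7.34 in the low-ratio class with a median of 6.92, and from 6.68 to 8.42 in the high-ratio class with a median of 7.05. The ranges overlapped from 6.68 to 7.34, which holds 3 of the 5 low-ratio and 5 of the 7 high-ratio libraries. The difference was -0.46 ± 0.30 (SE), with an exact two-sided permutation p = 0.194 (0.486 adjusted over 5 measures) and a limma adjusted p = 0.230. Without the 3 libraries it was -0.08, after a correction for GC content 0.02, and with the threshold at -1.4, which moves labelled control S961 replicate 8 to the low-ratio class, 0.01. Among the other 16 libraries the difference was 0.18 (exact permutation p = 0.458, 0.740 adjusted). Counts over a whole gene do not separate floxed exons from the rest, and islets hold many cells without Ins1.

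Genes with a small p in both sets of libraries form a short list. The other 16 libraries share none with the 12 and were split at the same ratio. There 2 of 13822 genes (0.0145%) were called by limma and 963 (6.97%) had an unadjusted p below 0.05. Those called were Sult1d1, which encodes a sulfotransferase of catecholamines and related small molecules, and Fam212b (also named Inka2), which encodes an inhibitor of the kinase PAK4. Their promoters are shown because these are the genes on which the comparison of both sets turns, and because Klf6 belongs to a family that binds CACCC and GC boxes. Fam212b has 2 promoters in the source, and only the one at the annotated start of the gene is shown. The sequences are the 250 bases before the RefSeq start on GRCm38.p6, 5′ to 3′ on the gene's strand. CACCC or GGGTG (the same box on the other strand) and GGGCGG or CCGCCC are in capitals. For Sult1d1 the RefSeq start lies downstream of the annotated start used for coordinates (offset -21 bases on the chromosome). The end of its window, with the marked box, therefore lies inside the annotated gene.
Fam212b, chr3:105704349-105704598, plus strand: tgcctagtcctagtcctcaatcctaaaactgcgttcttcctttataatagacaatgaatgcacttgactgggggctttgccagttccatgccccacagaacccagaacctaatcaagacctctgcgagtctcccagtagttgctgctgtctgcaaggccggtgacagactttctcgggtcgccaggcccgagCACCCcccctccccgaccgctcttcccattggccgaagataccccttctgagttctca
Sult1d1, chr5:87569007-87569256, minus strand: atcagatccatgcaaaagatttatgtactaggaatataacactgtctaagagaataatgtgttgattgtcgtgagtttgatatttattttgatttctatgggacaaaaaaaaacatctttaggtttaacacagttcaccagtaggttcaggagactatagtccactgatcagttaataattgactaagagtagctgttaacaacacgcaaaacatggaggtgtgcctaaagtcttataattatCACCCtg
Each window holds 1 CACCC box and no GGGCGG box on either strand. Of 32851 promoter windows of this length in the table, 52.0% hold a CACCC box and 32.7% a GGGCGG box, so a match is common and says nothing about binding.

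Fam212b stood higher in low-ratio libraries of both sets. In the 12 it stood at 3.30, 3.32, 3.39, 3.38 and 3.30 log2 CPM in the low-ratio libraries (in the order given in the opening) and at 2.72, 2.62, 2.58, 2.998, 2.39, 2.61 and 3.06 in the high-ratio libraries. All 5 low-ratio values lay above all 7 high-ratio values. The difference was 0.63 ± 0.13 (SE), with a limma adjusted p = 0.126 that does not pass, and 0.61 without the 3 libraries. It was 0.69 among libraries labelled saline and 0.58 among those labelled S961, and 0.44, 0.96, 0.77 and 0.48 within lanes 4, 5, 6 and 7. In the other 16, low-ratio libraries ran from 3.83 to 4.10 with a median of 3.91 and high-ratio libraries from 3.38 to 3.73 with a median of 3.47, again without overlap. That difference was 0.43 ± 0.07 (limma adjusted p = 0.0443), and 0.37 with labelled treatment as a covariate (limma adjusted p = 0.479), so the call is lost with treatment in the fit.

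Sult1d1 stood lower in low-ratio libraries of both sets. In the 12 it stood at 6.65, 5.88, 6.63, 5.78 and 5.72 in the low-ratio libraries and at 6.68, 8.11, 7.67, 6.60, 7.85, 7.32 and 6.87 in the high-ratio libraries. The classes met at their edges, where labelled control S961 replicate 1, the high-ratio library at 6.60, lay below labelled control saline replicates 2 and 5. The difference was -1.17 ± 0.29 (SE; limma adjusted p = 0.126), -0.94 without the 3 libraries and -0.57 after the correction for GC content. Within lanes 5, 6 and 7 it was -2.02, -1.09 and -1.55, while in lane 4 it was 0.01. In the other 16, low-ratio libraries ran from 5.82 to 6.57 with a median of 6.20 and high-ratio libraries from 6.89 to 7.53 with a median of 7.11, without overlap. The difference there was -0.94 ± 0.11 (limma adjusted p = 0.00174), and -0.95 with labelled treatment as a covariate (limma adjusted p = 0.0288). That fit held no term for labelled genotype, and every control library of the other 16 was high-ratio. Sult1d1 was called in 24 of the 24 alternatives run on the other 16, and Fam212b in 7 of 24.

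Sult1b1, the neighbouring sulfotransferase gene on chromosome 5, was chosen after its values were seen. It differed by -0.97 ± 0.28 in the 12 and by -0.49 ± 0.13 in the other 16, with limma adjusted p of 0.126 and 0.293. Its levels were low, from -0.26 to 1.996 log2 CPM in the 12.

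The annexin gene Anxa5, whose protein binds phospholipids in the presence of calcium, was, with Fam212b, 1 of only 2 genes tested in both sets whose classes did not overlap in either. It ran from 8.53 to 8.75 in the low-ratio and from 8.76 to 9.07 in the high-ratio libraries of the 12, and from 8.22 to 8.37 and from 8.38 to 8.62 in the other 16. The differences were -0.22 and -0.20 (limma adjusted p = 0.126 and 0.299), and after quantile normalization of the 12 the difference was 0.02. The gaps between the classes were far smaller than the ranges within them.

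**Figure D2:**
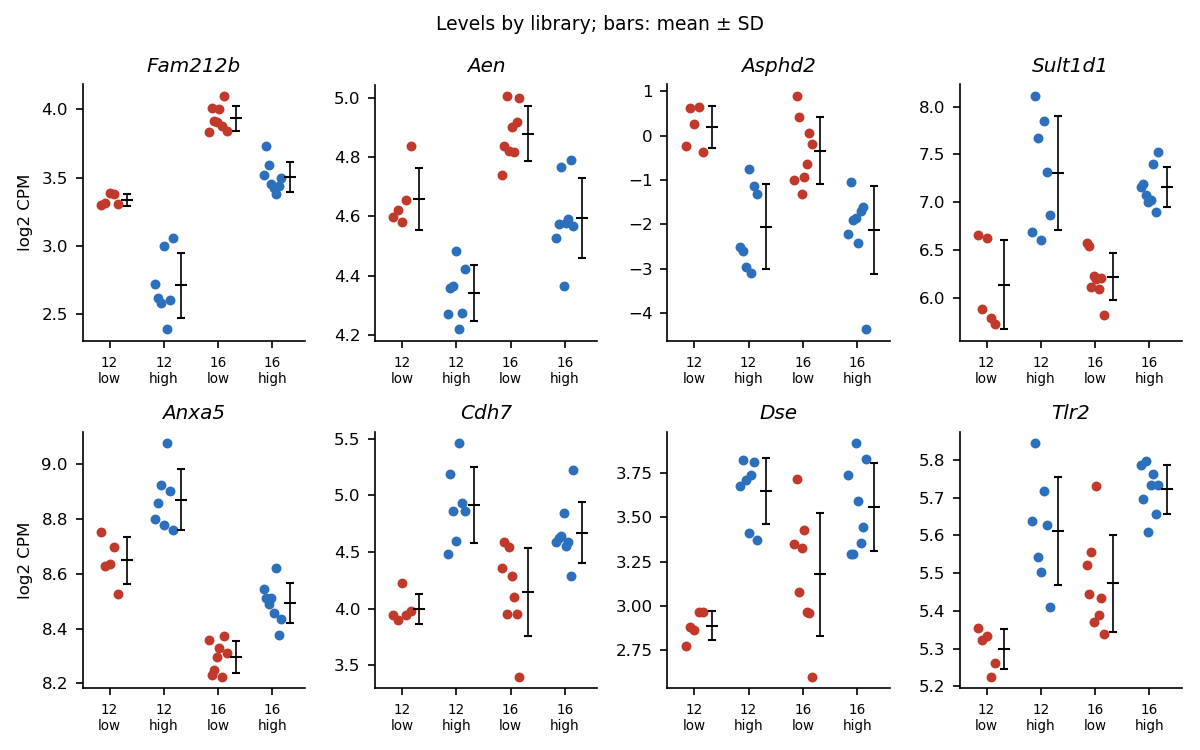
Level (log2 CPM) of 8 genes in each library, by ratio class in the 12 libraries and in the other 16 (red low-ratio, blue high-ratio), with the mean and SD of each class as black bars. Fam212b and Anxa5 show no overlap of classes in either set, and Sult1d1 separates fully in the other 16, from 5.82 to 6.57 against 6.89 to 7.53.

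How often the sets of libraries pointed to the same genes was counted over 13259 genes tested in both. At an unadjusted p below 0.05 there were 5270 genes in the 12 and 893 in the other 16, and 131 were in both. That is 2.49% of the first list, less than the 6.74% that the second list holds of all genes, and 112 of the 131 had the same direction. At an unadjusted p below 0.01 there were 337 genes in the 12 and 218 in the other 16, and 14 were in both, which is 4.15% of the first list and 6.42% of the second, where the second list holds 1.64% of all genes and the first 2.54%. All 14 had the same direction in both sets, while over all genes 44.8% did. Without the 3 libraries the lists held 145 and 218 genes and shared 20 (13.8% and 9.17%), all 20 in the same direction, beside 50.7% over all genes.

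Among the shared genes, all chosen after their values were seen, were Aen, which encodes a nuclease, and Cdkn1a, which encodes the cell cycle inhibitor p21. Aen stood at 4.60, 4.62, 4.58, 4.65 and 4.84 in the low-ratio libraries and from 4.22 to 4.48 in the high-ratio libraries of the 12, without overlap. The difference was 0.32 ± 0.09 in the 12, 0.31 without the 3 libraries and 0.29 ± 0.07 in the other 16 (limma adjusted p = 0.240 in the last). Cdkn1a differed by 0.50 in the 12, 0.45 without the 3 libraries and 0.43 in the other 16, with overlapping classes in both sets. After the correction for GC content the 12 gave 0.14 for Aen and 0.0038 for Cdkn1a.

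Other genes shared between the sets were the pattern receptor gene Tlr2, lower by a difference of -0.31 in the 12, -0.28 without the 3 libraries and -0.25 in the other 16, and the cadherin gene Cdh7, at -0.91 and -0.52. Asphd2 and Fam107a were higher, by 2.24 and 1.53 in the 12, 2.03 and 1.90 without the 3 libraries and 1.80 and 0.86 in the other 16. Asphd2 lies near or below 1 CPM, between -0.37 and 0.65 log2 CPM in the low-ratio and between -3.08 and -0.76 in the high-ratio libraries, so single reads weigh on its value. No high-ratio library reached 1 CPM in the 12 or in the other 16, where the highest was -1.04 log2 CPM. Asphd2 thus passed the filter in both sets only through low-ratio libraries. Its shared direction was set by that filter and is no support.

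A class effect shared by all 28 libraries, with the set of libraries as a covariate, was fitted as an alternative chosen after seeing the data. It called 21 of 14033 genes (0.15%), 12 higher and 9 lower. The smallest adjusted p values were those of Fam212b (0.51 ± 0.06, limma adjusted p = 1.43e-04), Evc (1.06 ± 0.14, adjusted p = 2.91e-04), Sult1d1 (-1.04 ± 0.14, adjusted p = 3.49e-04) and Asphd2 (1.98 ± 0.31, adjusted p = 0.00271). Evc, which encodes a protein of the primary cilium that takes part in Hedgehog signalling, did not reach 1 CPM in enough of the 12 libraries to be tested there. It ran from -0.57 to 0.67 log2 CPM in the low-ratio class and from -1.37 to -0.88 in the high-ratio class, without overlap. No high-ratio library of the 12 reached 1 CPM for Evc, and none of the 28 did for Asphd2. The directions of these genes are therefore not independent of the filter. The kinase gene Stk32b, its close neighbour on chromosome 5, was called too, at 0.62 ± 0.11. Further calls included Crhr1, a receptor for corticotropin-releasing hormone, at 1.44, Rasd2, a small GTPase, at 1.18, and Anxa4, another annexin, at -0.26. The difference between the sets in this effect was called for 0 of 14033 genes by limma, with 5362 at an unadjusted p below 0.05.

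The 20 genes with the smallest p in the 12 all had a limma adjusted p = 0.126 and so are given as levels, not as changes. They were picked for a small p in these same libraries, so separate classes in the 12 are no further result. Of the 20 genes 13 stood lower and 7 higher in the low-ratio class. Dse, which encodes the epimerase that makes dermatan sulfate, stood at 2.77, 2.88, 2.87, 2.96 and 2.97 in the low-ratio libraries and at 3.68, 3.82, 3.71, 3.41, 3.74, 3.81 and 3.37 in the high-ratio libraries. No low-ratio library reached any high-ratio library. The difference was -0.76 ± 0.12 (SE), also -0.76 without the 3 libraries, and -0.77, -0.82, -0.95 and -0.57 within lanes 4 to 7. Among the other 16 it was -0.38 ± 0.14 (limma adjusted p = 0.592), with overlapping classes.

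Cdh7 stood at 3.95, 3.90, 4.23, 3.94 and 3.98 in the low-ratio libraries and from 4.48 to 5.46 in the high-ratio libraries. Aqp4, a water channel gene, stood at 4.41, 4.15, 4.50, 4.50 and 4.33 against 4.78 to 5.89, and Lyve1, a hyaluronan receptor of lymphatic endothelium and some macrophages, at 2.60, 2.70, 2.47, 2.69 and 2.45 against 3.05 to 3.78. In each of these the classes did not overlap. Without the 3 libraries the differences were -0.72, -0.96 and -0.77, and after the correction for GC content -0.44, -0.53 and -0.56. They were -0.52, -0.21 and -0.08 in the other 16, the last 2 well inside the spread there. The difference between the sets did not pass for any of them (limma adjusted p = 0.190, 0.118 and 0.118).

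The remaining lower members of the 20 were Dock10 and Sgtb (-0.74 and -0.52), the bicarbonate transporter gene Slc4a10 (-0.59), the semaphorin receptor gene Plxnc1 (-1.05), the inositol transporter gene Slc2a13 (-0.84), the immune receptor gene Slamf7 (-0.82), Lancl3 (-0.71), the inflammasome sensor gene Naip2 (-0.44) and the integrin gene Itga2 (-0.73). The higher members other than Fam212b and Asphd2 were the collagen gene Col9a2 (2.07), the receptor gene Gfra4 (1.45), the teneurin gene Tenm4 (0.69), 5330439M10Rik (0.86) and the chromatin reader gene Trim66 (0.68). With the 3 libraries left out the lower of these ran from -0.81 to -0.37 and the higher from 0.49 to 1.67. Of all 20, Col9a2 alone had overlapping classes in the 12, which follows largely from how the 20 were picked. Over all genes the classes of the 12 did not overlap for 0.531% (higher) and 0.763% (lower). Fam212b alone of the 20 had separate classes in the other 16, for which the share over all genes is not given. Col9a2 and Gfra4 are near 1 CPM, at means of 1.36 and 0.54 log2 CPM in the low-ratio class and -0.71 and -0.91 in the high-ratio class. The highest high-ratio value of Gfra4 was -0.53, so in the 12 it passed the filter only through low-ratio libraries.

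No gene was shown to differ between the classes in a way that depended on labelled treatment. The interaction of ratio class and treatment gave 0 of 13370 calls by limma, 33 genes at an unadjusted p below 0.05, and a smallest adjusted p of 0.9997. That test rests on 3 low-ratio libraries labelled saline and 2 labelled S961.

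Position on the chromosome was examined because Cre sits in the Ins1 locus and the loxP sites in Klf6. Within 5 Mb of Ins1 on chromosome 19, 7 of 32 genes (21.9%) had an unadjusted p below 0.05, 6 of them lower, against 39.3% on other chromosomes, and 2 of 32 (6.25%), both higher, without the 3 libraries. Within 10 Mb, 45 of 119 genes (37.8%) had a small p, and 6 of 119 (5.04%) without the 3 libraries, against 5.54% on other chromosomes. The rest of chromosome 19, more than 20 Mb away, had 53.7% and 6.27%. The tested genes nearest Ins1 were Cfap58 and Sorcs1 on one side, at -0.09 and 0.0012, and Xpnpep1 and Add3 on the other, at 0.82 (0.38 without the 3 libraries) and -0.0041.

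Genes near Klf6 on chromosome 13 stood lower in the low-ratio class, and so did most genes with a small p on the rest of that chromosome. Within 5 Mb of Klf6, 13 of 20 genes (65.0%) had an unadjusted p below 0.05 in the 12 libraries, all 13 lower, against 39.3% on other chromosomes. Without the 3 libraries the count was 6 of 20 (30.0%), all lower, against 5.41%, and in the other 16 it was 7 of 20 (35.0%), all lower, against 6.83%. After the correction for GC content it was 5 of 20 (25%) against 19.7%. Within 10 Mb the counts were 23 of 39 (58.97%), 8 of 39 (20.5%) without the 3 libraries and 7 of 41 (17.1%) in the other 16, all lower. No gene of this window was called by limma in either set alone. The class effect shared by all 28 libraries called 1 gene there, Akr1c13 (-0.44, limma adjusted p = 0.0133). Shares on the rest of chromosome 13, more than 20 Mb away, were 47.3% in the 12, 8.59% without the 3 libraries and 9.36% in the other 16. Those genes leaned the same way. Lower were 177 of 204 in the 12, 31 of 36 without the 3 libraries and 26 of 41 in the other 16. After the correction for GC content 73 of 90 were lower. The direction was therefore not particular to the window around Klf6.

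The members of that window with small p in both sets were a cluster of aldo-keto reductases, enzymes that reduce steroids and other carbonyl compounds. They were chosen after their values were seen, and their sequences are so alike that reads may be split between them, so they count as 1 signal. Akr1c13 stood at 6.72, 6.37, 6.57, 6.27 and 6.56 in the low-ratio libraries and at 6.70, 7.27, 7.07, 6.53, 7.47, 7.06 and 7.04 in the high-ratio libraries, with some overlap. Its difference was -0.52 ± 0.15 in the 12 (limma adjusted p = 0.126), -0.34 without the 3 libraries and -0.39 ± 0.09 in the other 16 (limma adjusted p = 0.212). Akr1c12, Akr1c14, Akr1c19 and Akr1e1 had differences of -0.48, -0.64, -0.42 and -0.51 in the 12 and -0.31, -0.43, -0.49 and -0.20 in the other 16. Without the 3 libraries they ran from -0.31 to -0.27. After the correction for GC content the 5 genes came closer to 0, with Akr1c13 at -0.21, Akr1c12 at -0.11, Akr1e1 at -0.08, Akr1c14 at -0.04 and Akr1c19 at 0.06.

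Ucn3, which encodes urocortin 3, a peptide hormone of mature β cells, lies in the same window and had opposite signs in the sets. It stood from 8.57 to 9.08 in the low-ratio and from 7.68 to 9.19 in the high-ratio libraries of the 12, a difference of 0.29 ± 0.28, and of -0.21 without the 3 libraries. Among the other 16 it ran from 7.79 to 8.38 and from 8.33 to 8.62, a difference of -0.40 ± 0.08 (limma adjusted p = 0.103). The difference between the sets did not pass (0.69, limma adjusted p = 0.118).

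**Figure D3:**
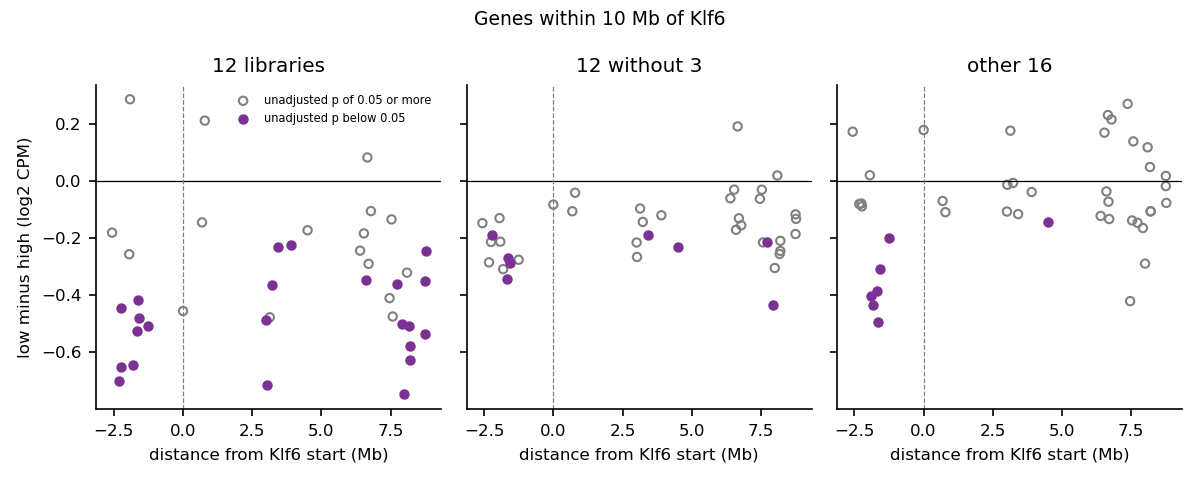
Low-ratio minus high-ratio difference (log2 CPM) of each tested gene within 10 Mb of Klf6 against its distance from the Klf6 start (Mb), in the 12 libraries, in the 12 without the 3 libraries that stood apart, and in the other 16; filled points have an unadjusted p below 0.05. All filled points lie below 0, and those left of the start in the third panel are Ucn3 and 5 aldo-keto reductase genes.

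Gene lists are described by counts at an unadjusted p below 0.05 and medians, beside 20.4% higher and 19.1% lower and a median of -0.03 over all genes; no list had a called member in the 12. Over all genes the shares higher and lower were 2.49% and 3.09% without the 3 libraries, and 4.02% and 2.94% in the other 16. In RNA from whole islets, fewer cells of a type and less RNA per cell cannot be told apart. Of 37 cytosolic ribosomal protein genes, parts of the machine that makes protein, 23 were higher and 0 lower, and the median difference was 0.79. When the 3 libraries were left out 0 of the 37 had a small p and the median was 0.14. The list took 0.844% to 1.02% of CPM in the low-ratio libraries and 0.498%, 0.367% and 0.583% in the 3 libraries that stood apart.

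Genes of the exocrine pancreas had median differences above 0 in the 12 and in the other 16. Of 28 tested acinar genes 6 were higher, a share near the 20.4% of all genes, and 0 lower (median difference 0.62), and 0 of 27 had a small p without the 3 libraries (median 0.47). The acinar list took 4.06% to 6.08% of CPM in the low-ratio and 0.714% to 5.57% in the high-ratio libraries. The protease gene Ctrl, its member with the smallest p, stood at 9.05 ± 0.34 (SD, n = 5) against 7.39 ± 1.60 (n = 7), and its difference was 0.82 without the 3 libraries. Of 16 ductal genes 5 were higher (3 without the 3 libraries), with medians of 0.61 and 0.38, and in the other 16 libraries the medians of these lists were 0.49 and 0.45. With the first component as a covariate the medians in the 12 fell to 0.14 and 0.12. The keratin gene Krt19 stood at 6.31 ± 0.23 against 4.73 ± 1.59, a difference that was 0.72 without the 3 libraries. The part of exocrine RNA in other differences was not tested.

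Of 28 genes of the ATF4 amino acid response 13 were higher and 1 lower (median 0.36), and 5 were higher without the 3 libraries; in the other 16 the median was -0.01. Psph, an enzyme of serine synthesis, differed by 0.39 in the 12 and -0.16 in the other 16. Of 27 genes of glycolysis and hypoxia 9 were higher and 3 lower, and 1 and 0 without the 3 libraries; the glucose transporter gene Slc2a1 differed by 1.12, and by 0.50 without them. Of 18 immediate early genes 5 were higher and 3 without the 3 libraries, and Ier2 differed by 1.13 and then 0.56, and by 0.02 after the correction for GC content. Of 30 genes of the unfolded protein response 4 were higher and 6 lower, and Derl3, a component of protein disposal in the endoplasmic reticulum, had classes that did not overlap (1.999 ± 0.26 against 0.64 ± 0.99). Its difference of 1.36 was 0.58 without the 3 libraries and -0.25 in the other 16.

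β-cell genes showed no common direction in the 12. Of 37 genes of β-cell function 7 were higher and 2 lower in the 12, and 1 and 1 without the 3 libraries. In the other 16, where class ran with treatment, 0 of the 37 were higher and 5 lower, beside 2.94% of all genes lower. The calcium-binding protein gene Scgn stood at 8.66 ± 0.16 against 9.02 ± 0.21, a difference of -0.36 in the 12, -0.30 without the 3 libraries and -0.20 in the other 16. Of 21 β-cell transcription factors 3 were higher and 5 lower in the 12, and 0 higher and 2 lower in the other 16. Isl1, a factor of all islet endocrine cells, differed by -0.46, then -0.26 without the 3 libraries and -0.14 in the other 16. Of 15 dedifferentiation and progenitor genes 2 were higher in the 12. In the other 16, 4 were higher and 0 lower, beside 4.02% of all genes higher. Their medians were 0.30 in the 12, 0.23 without the 3 libraries and 0.23 in the other 16. Cd81, a surface protein of immature β cells, differed by 0.84, 0.42 and 0.20 in the same order, and its classes did not overlap in the 12.

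**Figure D4:**
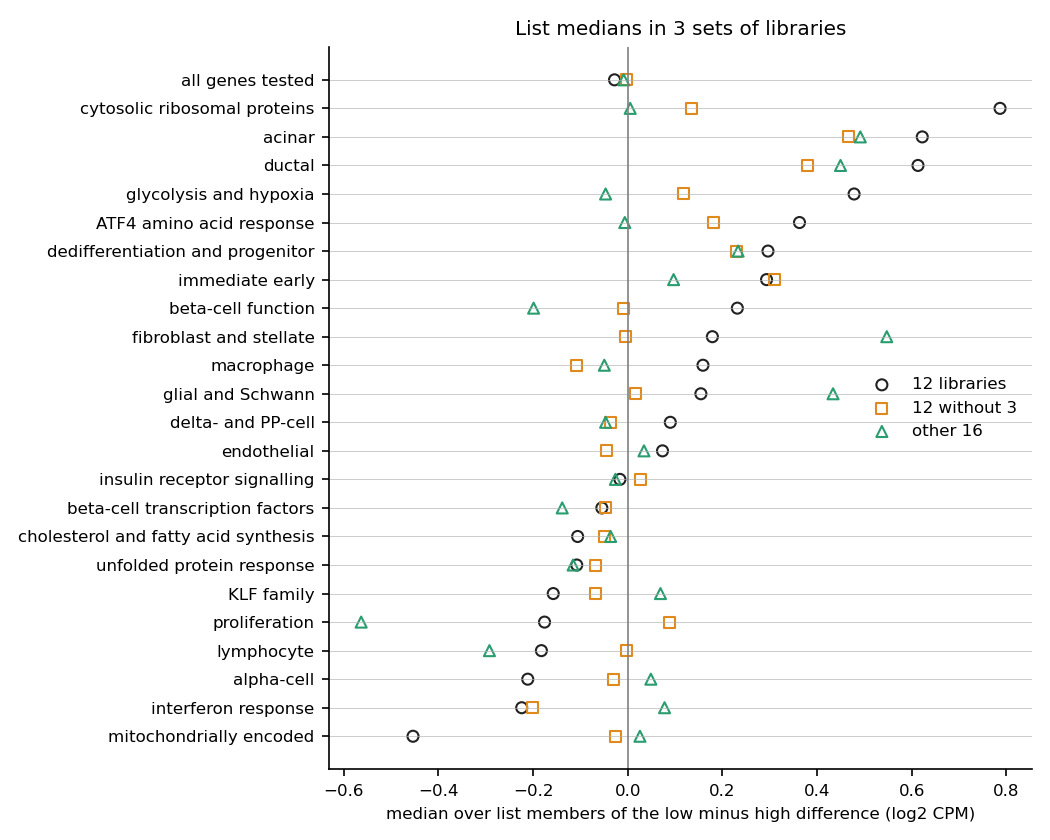
Median low-ratio minus high-ratio difference (log2 CPM) over the tested members of each of 23 gene lists and over all genes, in the 12 libraries (circles), the 12 without the 3 libraries that stood apart (squares) and the other 16 (triangles). The ribosomal protein median moves from 0.79 to 0.14 without the 3 libraries, while the acinar and ductal medians stay between 0.38 and 0.62 in all 3 sets.

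Other endocrine cells, vessels and immune cells gave smaller counts. Of 17 α-cell genes 3 were higher and 2 lower, and Dpp4 differed by -0.62 and by -0.38 without the 3 libraries. Of 14 δ- and PP-cell genes 2 were lower. Of 20 endothelial genes 4 were lower and 3 without the 3 libraries, among them Emcn at -0.66 and -0.36, while the summed list ran from 0.0252% to 0.0409% and from 0.0316% to 0.0457% of CPM. Of 22 macrophage genes 2 were higher and 2 lower and 0 had a small p without the 3 libraries, with Ptprc at -0.96 and then -0.50. Of 14 measured lymphocyte genes only 4 could be tested and 1, Il7r, was lower, at -0.89 and -0.36. Of 22 fibroblast and stellate cell genes 1 was lower, the pericyte gene Rgs5 at -0.68, while in the other 16 libraries 10 of 22 were higher, beside 4.02% of all genes, where class ran with treatment.

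Of 26 interferon response genes 9 stood lower and 2 higher in the 12, and 6 lower and 1 higher without the 3 libraries, but 0 lower and 2 higher in the other 16. Ifit2 stood at -1.04 in the 12 and 0.10 in the other 16. Of 16 KLF family genes 3 were higher and 3 lower, and Klf15 differed by 0.93 in the 12, 0.71 without the 3 libraries and 0.13 in the other 16. Of 29 tested proliferation genes 3 were higher and 2 lower, and 0 without the 3 libraries, while in the other 16 libraries 17 of 29 were lower, beside 2.94% of all genes; the cyclin gene Ccne2 differed by -0.82 and -0.30 in the 2 sets. Of 29 genes of cholesterol and fatty acid synthesis 7 were higher and 7 lower, and of 29 genes of insulin receptor signalling 9 were higher and 7 lower; without the 3 libraries 1 and 2 members of these lists were lower and 0 higher. Neither of 2 mitochondrially encoded RNAs had a small p, mt-Rnr1 standing at -0.50 and, without the 3 libraries, -0.03.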

How the data were processed

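Islet RNA was sequenced as 1 stranded poly(A) library per mouse, per the labels' protocols. The authors deposited log2 CPM values for 14219 genes in 28 libraries. STAR 2.5.3a, HTSeq 0.9.1, edgeR and the build GRCm38 are named in the submitters' processing notes. Strand handling during counting was not given, and reads of overlapping or antisense genes could be mixed. Inverting the deposited log2 form, log2 of reads plus 0.5 over a scaled library, gave whole reads within 0.05 for 100% of values. Chi-square over genes, divided by its degrees of freedom, was at least 31.1 in 66 pairs of the 12 libraries, so none agreed within sampling noise. Coordinates and GC content came from GENCODE M21.

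A gene was tested if it reached 1 CPM in 3 or more libraries of a set, by a fit with limma 3.58.1 in R 4.3.3 (empirical Bayes, intensity trend, two-sided, Benjamini-Hochberg over all genes, called below 0.05). The deposited values were not scaled further, and Ins1 and Ins2 stayed out of all counts. Single measures were compared by exact permutation tests. The fit was run on simulated data with known changes, and its rates of recovery and of false calls are not reported here.

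The members and the 23 lists were chosen with earlier results of these data known. Named genes were Klf6, the 20 genes with the smallest p (since under 10 were called), the 2 tested genes on each side of Ins1 and 1 gene per list with the smallest p, of which 2 are not reported here; others were chosen after their values were seen. Alternatives covered filters, a floor at 1 CPM, moderation, weights, scaling, covariates, a replicate block, a GC correction in 20 bins, thresholds of -1.4 and -1.3, and libraries left out.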

Additional observations from a re-analysis of the deposited data

Results flagged for a closer look

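Single libraries lay far from the others of their class, by Dixon's criterion, in 3 of 134 groups of named genes, where chance gives about 1 in 20. Cdh7 in labelled control saline replicate 5 was 4.23 log2 CPM, above the nearest low-ratio library at 3.98. Gfra4 in labelled control saline replicate 4, one of the 3 libraries that stood apart, was -2.16, below the nearest high-ratio library at -0.97. Aen in labelled control S961 replicate 7, the low-ratio library nearest the threshold, was 4.84, above the next at 4.65.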

How the results depend on the processing

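The count of 0 called genes held in 28 of 33 alternatives and was 0 for each library left out in turn. It became 3296 with library weights, 5868 with a replicate block, 6040 when all 28 libraries were fitted together, 8763 with the log2 ratio as a number and 21 for a class effect shared by all 28 libraries. The replicate block left 3 residual degrees of freedom, and the same-numbered saline and S961 libraries deviated together with correlations of 0.82, 0.23, 0.34 and -0.57. The first of these pairs was also in 1 lane, the others were not. The labels name no animal or batch behind the numbers, and 1 pair was below 0.1, so the libraries were taken to share only a number. At an unadjusted p below 0.05 the count ran from 1482 to 7577 when 1 library was left out. It was 682 with the threshold at -1.4, 2549 at -1.3, 515 with the first component as a covariate, 2633 after the GC correction, 3261 with treatment as a covariate and 2948 with the 2 control libraries put back. The cause of these shifts was not tested.

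In the other 16 libraries the 2 calls became 35 with library weights, 18 after the GC correction and 1 with robust moderation, quantile normalization, treatment as a covariate or a replicate block, and ran from 1 to 3 when 1 library was left out. The interaction with treatment gave 0 calls in every alternative run. Klf6 ran from -0.59 to -0.26 when 1 library was left out, and reversed to 0.018 after the GC correction and 0.014 with the threshold at -1.4.

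Of 2155 values of named genes under alternatives 34 changed sign, most of them values near 0. Sorcs1 went to -0.012 with a floor at 1 CPM, -0.39 with library weights, -0.25 with quantile normalization, -0.12 with median centring, -0.017 with treatment as a covariate, -0.025 and -0.32 with thresholds of -1.4 and -1.3, -0.067 with the ratio as a number and -0.016 with voom weights. With 1 library left out it ran from -0.14 to 0.15. Add3 went to 0.025 with library weights, 0.023 with quantile normalization, 0.016 with a replicate block, 0.31 after the GC correction and 0.023 with the threshold at -1.3, and ran from -0.021 to 0.022 with 1 library left out. Cfap58 ran from -0.27 to 0.013 with 1 library left out. The mitochondrial mt-Rnr1 went to 0.18 when the first component was a covariate and 0.097 in the GC-corrected fit. Ucn3 went to -0.038 with library weights, -0.36 with the first component, -0.21 without the 3 libraries and -0.11 for the shared class effect. Akr1c19 went to 0.055 after the GC correction and Anxa5 to 0.017 after quantile normalization. Library weights were fitted with a warning that full convergence was not reached in 1 fit.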
